A study of Mus musculus with 22 samples.

Results

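The genes examined here were 33 genes of glycolysis and of the response to low oxygen, chosen by a list of symbols and all found among the 24130 genes of each deposited table. They were followed by RNA sequencing in 20 libraries of mouse embryonic fibroblasts (MEFs) during reprogramming towards pluripotency. All of these cells were passage P2 fibroblasts of mixed 129SVJ, C57B6 and CBA background that carry OG2, a transgene in which regulatory sequence of the pluripotency gene Oct4 drives GFP. Each sample was taken on a numbered day that followed 2 days of transfection. The OvSvK arm received Klf4 together with Oct4 and Sox2 that were each fused to VP16, a viral activation domain, and was sampled on days 0, 1, 2, 3 and 4. The OSK arm received Oct4, Sox2 and Klf4 and was sampled on days 0, 1, 3, 5 and 7. Further OSK cultures lacked vitamin C, the growth factor bFGF or the GSK3 inhibitors (CHIR-99021 and LiCl) and were sampled on days 3 and 7. Cells of the GFP arm, without the factors, were sampled on days 1, 3, 5 and 7. Embryonic stem cells (mESC) and untreated fibroblasts (MEF), both of OG2 mice, had 1 column each in a table of the whole series. The labels name neither the vector nor the number of embryos or cultures behind a library.

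Every arm and day was 1 library (n = 1), so no replicate spread could be given. The errors below are standard errors of fits, in which values depart from arm and day effects or from a line over days. The fits share this spread over their arms and borrow it across genes. An error is therefore not the day-to-day spread of 1 difference. Totals per library ran from 7872278 to 20720724 expected counts, and levels are given as CPM, counts scaled to the size of the library, or, between genes, as TPM, which also correct for the length of the transcript.

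Glycolysis splits glucose into pyruvate. Glucose enters through transporters of the Slc2a family, is trapped by hexokinases, passes phosphofructokinase as the main point of control, and ends as pyruvate, which lactate dehydrogenase turns into lactate or pyruvate dehydrogenase passes to the mitochondria. Under low oxygen the prolyl hydroxylases of the Egln family stop marking the transcription factor HIF-1α for destruction, and HIF then raises transcription of most glycolytic genes and of genes such as Vegfa, Adm and Bnip3. Pluripotent stem cells are known for a high rate of glycolysis, and vitamin C is a cofactor of the dioxygenase family to which the Egln enzymes belong.

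HIF binds a short core, ACGTG or GCGTG, so the promoters of the genes were read for these letters. RefSeq promoter windows on GRCm38.p6, from 250 bases before to 50 bases after the gene start, were at hand for 31 of the 33 genes (Ero1l under its RefSeq symbol Ero1a). Slc2a3 and Ndrg1 were not matched. Of these 31 windows, 24 (77.4%) held at least 1 match on either strand, against 11836 of 27025 promoters of all genes (43.8%). ACGTG is also part of the E-box CACGTG, so the matches of these motifs overlap, and both cores hold a CG. A match is a description of the letters and not of binding. Ldha and Pgk1 had falling lines over days in OSK cells, calls that were lost without day 0. Windows are printed for both, for Vegfa, lower in OSK than in GFP cells, and for Hk2, Pfkp and Pdk1, which were higher. They lie at chr6:82774405-82774704 (Hk2, minus strand), chr13:6648722-6649021 (Pfkp, minus strand), chr2:71872974-71873273 (Pdk1, plus strand), chr17:46032328-46032627 (Vegfa, minus strand), chr7:46845554-46845853 (Ldha, plus strand) and chrX:106186850-106187149 (Pgk1, plus strand). Capitals mark ACGTG or GCGTG, or their reverse complements CACGT and CACGC.
Hk2: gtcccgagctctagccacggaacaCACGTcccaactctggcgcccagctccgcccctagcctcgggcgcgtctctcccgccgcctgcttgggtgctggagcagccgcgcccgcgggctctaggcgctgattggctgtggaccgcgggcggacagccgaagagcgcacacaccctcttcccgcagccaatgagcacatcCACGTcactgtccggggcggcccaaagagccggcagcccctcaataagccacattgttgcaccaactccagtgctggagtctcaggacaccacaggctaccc
Pfkp: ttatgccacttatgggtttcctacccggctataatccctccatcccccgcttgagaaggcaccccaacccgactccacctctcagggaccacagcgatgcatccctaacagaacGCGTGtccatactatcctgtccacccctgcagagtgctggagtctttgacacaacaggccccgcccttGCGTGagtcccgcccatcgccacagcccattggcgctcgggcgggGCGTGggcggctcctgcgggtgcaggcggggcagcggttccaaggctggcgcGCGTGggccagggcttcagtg
Pdk1: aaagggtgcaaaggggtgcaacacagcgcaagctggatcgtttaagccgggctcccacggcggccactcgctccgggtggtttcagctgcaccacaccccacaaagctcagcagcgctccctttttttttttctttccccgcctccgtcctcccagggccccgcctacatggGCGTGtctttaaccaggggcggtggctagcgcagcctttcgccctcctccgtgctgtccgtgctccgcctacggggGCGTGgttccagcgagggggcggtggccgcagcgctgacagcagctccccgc
Vegfa: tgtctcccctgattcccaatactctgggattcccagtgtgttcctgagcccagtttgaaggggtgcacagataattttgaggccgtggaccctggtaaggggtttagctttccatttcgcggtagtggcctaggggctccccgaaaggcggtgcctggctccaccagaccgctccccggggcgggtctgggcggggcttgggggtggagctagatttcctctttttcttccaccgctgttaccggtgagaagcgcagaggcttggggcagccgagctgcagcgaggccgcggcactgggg
Ldha: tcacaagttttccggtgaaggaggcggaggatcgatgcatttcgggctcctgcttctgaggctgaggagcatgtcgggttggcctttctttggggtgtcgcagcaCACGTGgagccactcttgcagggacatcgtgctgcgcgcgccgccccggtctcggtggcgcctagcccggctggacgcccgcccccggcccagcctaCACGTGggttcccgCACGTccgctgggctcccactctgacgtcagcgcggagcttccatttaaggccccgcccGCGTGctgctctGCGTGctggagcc
Pgk1: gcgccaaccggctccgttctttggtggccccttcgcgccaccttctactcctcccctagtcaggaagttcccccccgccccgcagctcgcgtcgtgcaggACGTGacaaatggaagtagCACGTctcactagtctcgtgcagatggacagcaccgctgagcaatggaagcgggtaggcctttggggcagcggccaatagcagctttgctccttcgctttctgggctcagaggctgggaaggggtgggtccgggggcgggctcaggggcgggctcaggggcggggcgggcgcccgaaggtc

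The window of Ldha held 7 matches, with each CACGTG counted on both strands, that of Pfkp 4, those of Hk2, Pdk1 and Pgk1 2 each, and that of Vegfa none. Sequence outside the windows was not read, so a gene without a match here may have one elsewhere.

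Gapdh, the glyceraldehyde phosphate dehydrogenase, was the most abundant of the enzymes per length in each of the 20 libraries, with 1727 to 7446 TPM. Eno1, the common enolase, followed with a median of 1524 TPM over the libraries, then Aldoa (aldolase) with 928 TPM, Pgk1 (phosphoglycerate kinase) with 842 TPM, Gpi1 (glucose phosphate isomerase) with 832 TPM and Ldha (lactate dehydrogenase A) with 736 TPM. At the low end, Slc16a3, an exporter of lactate, had a median of 2.27 TPM. Ankrd37, a HIF target of the ankyrin repeat family, had a median of 3.35 TPM and was at 0 counts in 2 libraries. Car9, a carbonic anhydrase induced by low oxygen, had at most 4 counts in a library and was at 0 in 5, where 3 counts would have been 0.144 to 0.336 CPM, so it was tested in no comparison. Summed over 16 glycolytic enzymes, levels were 12387, 11380, 10745, 8964 and 10070 TPM on days 0 to 4 in OvSvK cells. The sums were 20801, 13559, 9725, 9704 and 10163 TPM on days 0, 1, 3, 5 and 7 in OSK cells, and 17252, 8776, 7694 and 7092 TPM on days 1, 3, 5 and 7 in GFP cells. In each arm the first library had the highest sum.

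**Figure D1:**
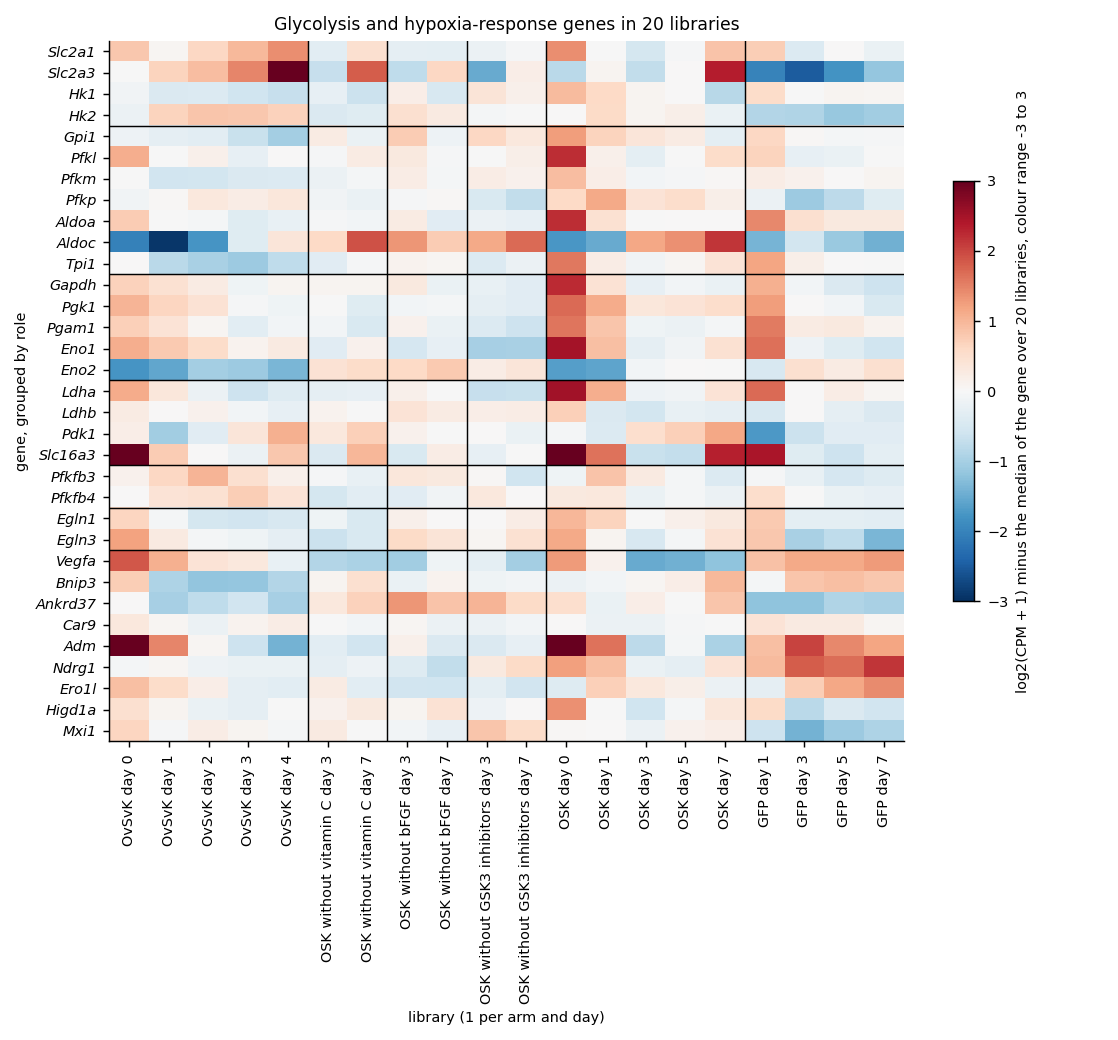
Each row is 1 of the 33 genes, grouped by role, and each column 1 library. Colour gives log2(CPM + 1) minus the median of that gene over the 20 libraries, and the common enzymes such as Gapdh, Eno1 and Ldha stand out on OSK day 0 and GFP day 1, while Slc2a3 is highest on OvSvK day 4 and OSK day 7.

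The libraries were not uniform, and this bears on several results. Of the counts of Rpsa and Rpsa-ps10 together, a gene and its processed copy, Rpsa-ps10 took 3.32% to 7.78% in 8 libraries (OSK days 1 to 7 and GFP) and 0.124% to 0.476% in the other 12 (OvSvK, OSK day 0 and the omissions), a difference that the labels do not explain. OSK against GFP on matched days and omission against omission lie within 1 such set, whereas OvSvK against OSK, omission against OSK and changes from day 0 in OSK cross them. OSK day 0 also stood apart by base composition: with genes in 5 groups by GC content, the group of lowest GC deviated by −1.52 from its median over libraries on the log2 scale and the group of highest GC by 1.12, and GFP day 1 came next with −0.95 and 0.36. The transcripts of the 33 genes had a median GC content of 54.4%, against 50.6% for the genes tested over days. Fibroblast markers (Col1a1, Thy1 and 5 others) summed to 1734 to 14395 CPM in OvSvK, 1705 to 26747 CPM in OSK and 12211 to 20151 CPM in GFP libraries. Markers of pluripotent cells (Nanog, Esrrb and 5 others) summed to 14.5 to 894, 2.91 to 862 and 0.711 to 1.99 CPM in the same arms. Neural markers (Nes, Tubb3 and 3 others) summed to 859 to 1347, 256 to 504 and 31.9 to 171 CPM, with Sox1 and Pax6 at 0 in GFP, and 5 endothelial markers to 85.9 to 201, 31 to 202 and 14.4 to 16.3 CPM. Macrophage, skeletal muscle and erythroid markers summed to at most 59.9, 9.58 and 1.75 CPM in any of these libraries. The part of these markers in the differences below was not tested. In bulk samples, fewer cells of a type and less RNA per cell cannot be told apart.

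OSK cells were compared with GFP cells on days 1, 3, 5 and 7. The transporter Slc2a3, the hexokinase Hk2, the phosphofructokinase Pfkp, the kinase Pdk1, which holds back pyruvate dehydrogenase, and Mxi1, an antagonist of Myc, were higher in OSK cells, and Vegfa and Ndrg1 were lower. Of 31 genes tested, 5 were higher (16.1%), against 16.8% of the 12680 genes tested, and 2 were lower (6.45%), against 14% of all, by edgeR's quasi-likelihood test with Benjamini-Hochberg adjustment at a threshold of 0.05. These shares do not stand out from the background, and the median difference was 0.05 on the log2 scale for the 31 genes and for all genes. DESeq2 called 6 higher and 5 lower.

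Slc2a3, a glucose transporter of high affinity, had 58.2, 32.8, 55.5 and 285 CPM on days 1, 3, 5 and 7 in OSK cells, against 13.0, 9.01, 15.2 and 24.3 CPM in GFP cells. The lowest OSK library lay above the highest GFP library, and OSK day 7 stood far above the other days. The log2 difference was 2.38 ± 0.34 (SE; edgeR, Benjamini-Hochberg adjusted p = 0.00706). Nanog, a gene of pluripotent cells, had 0.224, 0.42, 2.31 and 98.1 CPM on the same days in OSK cells and at most 0.51 CPM in GFP cells. The 7 pluripotent markers together had 7.96, 87.1, 185 and 862 CPM in OSK cells and at most 1.99 CPM in GFP cells, and their part in the difference of Slc2a3 was not tested. Hk2 had 192, 137, 146 and 113 CPM in OSK cells, against 69.2, 68.0, 57.7 and 62.3 CPM in GFP cells, without overlap (log2 difference 1.19 ± 0.17 SE; edgeR, Benjamini-Hochberg adjusted p = 0.00623). The ubiquitous transporter Slc2a1 and the other hexokinase, Hk1, did not pass the test, with log2 differences of 0.05 ± 0.31 and −0.19 ± 0.21 (SE).

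Pfkp, the platelet form of phosphofructokinase, had 308, 186, 202 and 157 CPM in OSK cells, against 123, 65.6, 80.2 and 108 CPM in GFP cells. The arms did not overlap, and the log2 difference was 1.19 ± 0.21 (SE; edgeR, Benjamini-Hochberg adjusted p = 0.0118). An exon of Pitrm1, a gene of the opposite strand with up to 290 CPM, overlaps Pfkp, and whether counting used the strand is not given in the sources used here, so the level of Pfkp is uncertain. The liver form Pfkl and the muscle form Pfkm differed by 0.06 ± 0.22 and −0.06 ± 0.13 (SE) on the log2 scale and did not pass. Pfkm likewise shares exon positions with Senp1, a gene of the opposite strand with up to 107 CPM, so its level is uncertain too. Aldoc, the brain form of aldolase, had 6.39, 45.5, 53.1 and 92.1 CPM in OSK cells, against 7.01, 13.2, 8.71 and 6.69 CPM in GFP cells. OSK lay above GFP from day 3 on, and the test missed the threshold (log2 difference 2.10 ± 0.66 SE; edgeR, Benjamini-Hochberg adjusted p = 0.06). Among the remaining 8 genes of upper and lower glycolysis, from Gpi1 to Eno2, log2 differences ran from −0.59 to 0.43, and none passed. Such averages cover days that differed in direction. The 16 enzymes summed to 10606, 6440, 6762 and 7179 CPM in OSK cells, against 15273, 6605, 5968 and 5497 CPM in GFP cells. GFP day 1 also stood apart by base composition.

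Pdk1 had 13.7, 26.4, 30.8 and 42.1 CPM in OSK cells, against 4.84, 11.5, 14.3 and 14.3 CPM in GFP cells. It was higher in OSK cells on each day, although OSK day 1 lay below GFP days 5 and 7 (log2 difference 1.35 ± 0.18 SE; edgeR, Benjamini-Hochberg adjusted p = 0.00523). Ldha and Ldhb, whose products form lactate dehydrogenase, differed by −0.17 ± 0.22 and −0.06 ± 0.18 (SE) on the log2 scale. Pfkfb3 and Pfkfb4, which set the level of the phosphofructokinase activator fructose 2,6-bisphosphate, differed by 0.48 ± 0.19 and −0.03 ± 0.20 (SE), and the hydroxylases Egln1 and Egln3 by 0.33 ± 0.17 and 0.64 ± 0.45 (SE). None of these 6 genes passed the test, nor did Slc16a3 with 0.37 ± 0.81 (SE).

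The hypoxia-response genes outside the pathway were divided. Vegfa, a growth factor for vessels, had 18.9, 5.35, 5.72 and 6.86 CPM in OSK cells, against 32.4, 38.8, 38.8 and 43.5 CPM in GFP cells (log2 difference −2.26 ± 0.41 SE; edgeR, Benjamini-Hochberg adjusted p = 0.0137). The 95% Poisson interval, which covers counting error only, was 3.98 to 7.03 CPM on OSK day 3 and 34.7 to 43.2 CPM on GFP day 3. Ndrg1, a gene induced by stress and differentiation, had 34.5, 15.5, 14.7 and 24.4 CPM in OSK cells, against 35.9, 66.2, 60.3 and 82.6 CPM in GFP cells (log2 difference −1.49 ± 0.39 SE; edgeR, Benjamini-Hochberg adjusted p = 0.0364). For Vegfa and Ndrg1 the arms did not overlap, but Ndrg1 on day 1 was nearly level between them. Mxi1 had 25.2, 22.2, 27.7 and 28.7 CPM in OSK cells, against 15.9, 8.77, 11.2 and 12.7 CPM in GFP cells (log2 difference 1.14 ± 0.20 SE; edgeR, Benjamini-Hochberg adjusted p = 0.0113). Adm, the vessel-dilating peptide adrenomedullin, had 12.8, 1.57, 3.25 and 1.32 CPM in OSK cells, against 7.39, 17.2, 11.2 and 9.15 CPM in GFP cells. It was higher in OSK cells on day 1 and lower from day 3 on, and did not pass (log2 difference −1.81 ± 0.76 SE; edgeR, Benjamini-Hochberg adjusted p = 0.123). Bnip3, a mitophagy receptor, Ero1l, an oxidase of the endoplasmic reticulum, and Higd1a, a mitochondrial protein, differed by −0.33 ± 0.23, −0.52 ± 0.44 and 0.26 ± 0.29 (SE) and did not pass. Ankrd37 had 1.01 to 3.13 CPM in OSK cells on these days and at most 0.249 CPM in GFP cells, was too low for the test, and shares exon positions with Ufsp2 on the opposite strand.

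With each of the 8 libraries left out in turn, the calls for Slc2a3 and Pdk1 held every time. Hk2 was lost without OSK day 5 or GFP day 5, and Pfkp, Vegfa and Mxi1 without day 3 or day 5 of either arm. Ndrg1 was lost without any 1 library of day 3, 5 or 7. In the series table Ndrg1 was not called.

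**Figure D2:**
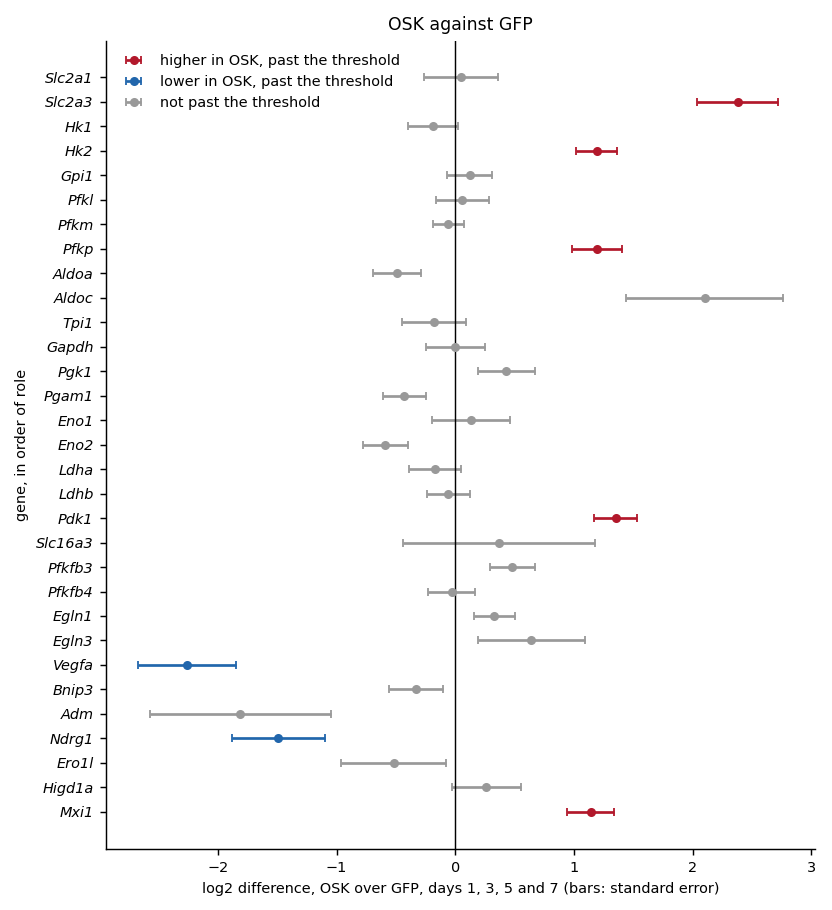
Points are the log2 difference of OSK over GFP for the 31 genes tested on days 1, 3, 5 and 7, and bars the standard error of the fit. The 5 genes past the threshold in OSK's favour are Slc2a3, Hk2, Pfkp, Pdk1 and Mxi1, and the 2 on the lower side are Vegfa and Ndrg1. Of the abundant enzymes, Gapdh and Eno1 lie near 0 (0.00 and 0.13), Aldoa at −0.49 and Pgk1 at 0.43, none past the threshold.

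A line over days was fitted for each arm in 1 model of 14 libraries, with 32 of the genes among 13848 tested. Slc2a3 and Aldoc rose and Adm fell in OvSvK and in OSK cells. In OSK cells Gapdh, Eno1, Aldoa, Pgk1, Ldha, Pgam1 and Vegfa fell as well, calls that were lost without day 0. Gpi1 and Hk1 also fell in OSK cells and kept their calls without day 0. Tpi1 did not pass there (slope −0.14 ± 0.07, SE). In GFP cells Pgk1 fell.

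In OvSvK cells 2 of 32 genes rose (6.25%, against 4.49% of all genes) and 1 fell (3.12%, against 5.81%). Slc2a3 had 54.7, 88.3, 105, 155 and 545 CPM on days 0 to 4 and rose by 0.77 ± 0.17 per day on the log2 scale (SE; edgeR, Benjamini-Hochberg adjusted p = 0.0178). Each day was above the day before, and the step to day 4 was the largest. Nanog had 0.665, 2.00, 9.52, 55.6 and 139 CPM on these days. Aldoc had 4.12, 1.77, 5.19, 15.2 and 26.1 CPM and rose by 0.81 ± 0.21 per day (SE; edgeR, Benjamini-Hochberg adjusted p = 0.0295), after its lowest level on day 1. Adm fell by 1.61 on the log2 scale per day (SE 0.26; edgeR, Benjamini-Hochberg adjusted p = 0.00414), with 61.7, 11.4, 3.68, 1.88 and 0.661 CPM on days 0 to 4. The call for Slc2a3 was lost without day 0 or day 4, that for Aldoc without any 1 of days 1 to 4, and that for Adm without day 0. Without OSK day 0 and GFP day 1, 9 of the genes fell in OvSvK cells.

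In OSK cells 3 of 32 genes rose (9.38%, against 21.5% of all genes) and 10 fell (31.2%, against 24.0%). The median slope was −0.11 per day for these genes and −0.01 for all genes on the log2 scale. Aldoc rose by 0.61 ± 0.13, Slc2a3 by 0.38 ± 0.09 and Eno2, the neuronal enolase, by 0.28 ± 0.08 per day (SE; edgeR, Benjamini-Hochberg adjusted p = 0.00463, 0.00796 and 0.0142). Eno2 had 13.9, 14.7, 43.6, 46.1 and 45.9 CPM on days 0, 1, 3, 5 and 7, a step between days 1 and 3 with no further rise. Slc2a3 had 30.9 CPM on day 0 and 285 CPM on day 7, and without day 7 its slope was 0.08 and not called. The call for Aldoc was lost without OSK day 0, and that for Eno2 without OSK day 0 or day 1.

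Of these enzymes, Gapdh had 7812, 2222, 1397, 1550 and 1433 CPM on days 0, 1, 3, 5 and 7 in OSK cells. Ldha had 2799, 1040, 435, 450 and 646 CPM, and Eno1 had 6416, 2119, 950, 1066 and 1552 CPM. Each was highest on day 0 and level or higher again after day 3, so that the lines describe an early drop. Log2 slopes per day were −0.31 ± 0.08 for Gapdh, −0.29 ± 0.09 for Ldha, −0.27 ± 0.09 for Eno1, −0.27 ± 0.08 for Aldoa, −0.23 ± 0.06 for Pgam1 and −0.16 ± 0.05 for Pgk1 (SE; edgeR, Benjamini-Hochberg adjusted p from 0.00951 to 0.0308). With the GC trend removed, the slope of Eno1 lost its call and the other 5 kept theirs. Without OSK day 0, all 6 calls were lost, and without OSK day 5 those for Pgk1, Ldha and Eno1 were lost as well. On the log2(TPM + 1) scale these 3 genes did not pass either. Counts of Pgam1, a phosphoglycerate mutase, are uncertain, since its pseudogene Pgam1-ps2 held 0.472% to 14.6% of their summed counts.

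Some slopes held in every such refit. Hk1 had 358, 279, 194, 185 and 103 CPM in OSK cells, each below the day before, and a slope of −0.23 ± 0.04. Gpi1 had 1732, 1170, 943, 864 and 592 CPM and a slope of −0.20 ± 0.04, and Adm had 66.4, 12.8, 1.57, 3.25 and 1.32 CPM and a slope of −0.76 ± 0.14 (log2 per day, SE; edgeR, Benjamini-Hochberg adjusted p = 0.00179, 0.00359 and 0.002). These 3 calls remained with each of the 14 libraries left out and under the other 6 settings. Vegfa fell by 0.38 on the log2 scale per day (SE 0.08; edgeR, Benjamini-Hochberg adjusted p = 0.00447), with 43.1 CPM on day 0 and 5.35 to 18.9 CPM later, and lost its call without day 0. Slc16a3 had 187, 9.19, 1.05, 0.99 and 15.4 CPM and did not pass.

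In GFP cells none of 32 genes rose (against 2.07% of all genes) and 1 fell (3.12%, against 2.73%), while 7 had an unadjusted p below 0.05 and DESeq2 called 1 rising and 3 falling. Pgk1 had 1372, 573, 538 and 418 CPM on days 1, 3, 5 and 7 and a log2 slope of −0.27 ± 0.07 per day (SE; edgeR, Benjamini-Hochberg adjusted p = 0.048), a call that held in 4 of 14 refits with 1 library left out and was lost when any OvSvK library was left out, and likewise for days 1 and 5 of OSK and for days 1, 5 and 7 of GFP. No slope differed between OSK and GFP cells by edgeR (0 of 32 in either direction, against 2.85% higher and 3.38% lower of all genes). Of these differences 6 had an unadjusted p below 0.05, and DESeq2 called 1 higher and 3 lower. Among these 6 were Adm (−0.76 ± 0.23), Vegfa (−0.44 ± 0.14), Ero1l (−0.32 ± 0.10) and Aldoc (0.66 ± 0.21 per day on the log2 scale, SE).

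**Figure D3:**
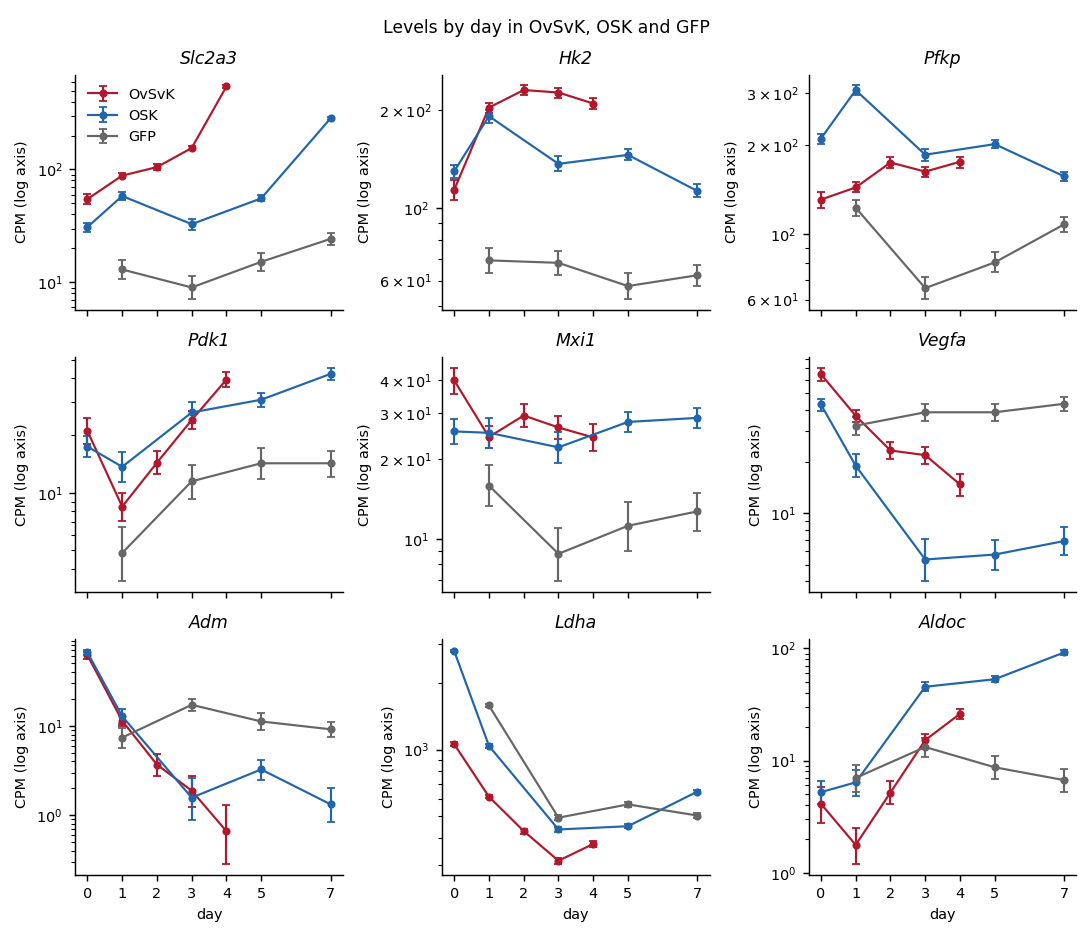
CPM on a log axis against day for 9 genes in OvSvK, OSK and GFP cells, 1 library per point, with bars for the 95% Poisson interval. Slc2a3 reaches 545 CPM on OvSvK day 4 and 285 CPM on OSK day 7, and Adm falls to 0.661 CPM on OvSvK day 4 and 1.32 CPM on OSK day 7, against 9.15 CPM on GFP day 7.

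Within families, the share of the variant forms was followed as a percentage of summed TPM, without a test. Hk2 held 30.7% of Hk1 and Hk2 on day 0 and 55.6% on day 4 in OvSvK cells, 20% on day 0 and 58.8% on day 7 in OSK cells, and 14.4% to 20% in GFP cells. Slc2a3 held 66.1% of Slc2a1 and Slc2a3 on OvSvK day 4, 60.6% on OSK day 7 and 21% on GFP day 7. Hk2 and Slc2a3 thus held the larger share at the end of both factor arms and the smaller one in GFP cells. On OSK day 7, however, Hk2 had its highest TPM of the arm (93.1) but its lowest CPM (113). Its share there is therefore not a rise in counts, and Hk1 was at its lowest in OSK as well (103 CPM). From day 1 on, Pfkp held 60.7% to 65.2% of the phosphofructokinase genes in OvSvK cells, 53.3% to 71.5% in OSK cells and 38.1% to 49.0% in GFP cells. Aldoc held 4.48% of Aldoa and Aldoc on OvSvK day 4, 13.8% on OSK day 7 and 0.938% on GFP day 7. Eno2 went the other way, with 1.13% of Eno1 and Eno2 on OvSvK day 4, 2.41% on OSK day 7 and 6.97% on GFP day 7. Ldhb held 17.5% of Ldha and Ldhb on OvSvK day 4, 10.8% on OSK day 7 and 12.2% on GFP day 7.

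**Figure D4:**
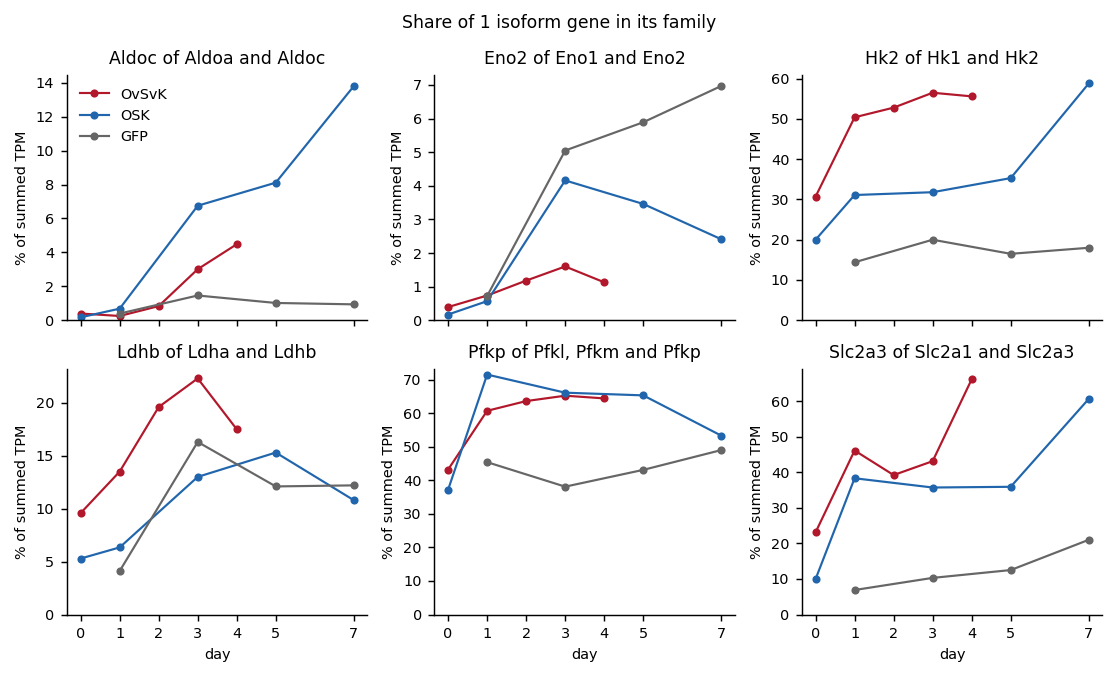
Each panel plots 1 gene's percentage of the summed TPM of its family against day, 1 point per library. Hk2, Slc2a3 and Pfkp lie higher in OvSvK and OSK than in GFP cells on each shared day, and Eno2 is highest in GFP cells from day 3 on.

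OvSvK cells were compared with OSK cells on days 0, 1 and 3. None of 32 genes passed in either direction, as none of the 12910 genes did (0% of all), by edgeR's quasi-likelihood test with Benjamini-Hochberg adjustment. At an unadjusted p below 0.05 there were 8 of the 32 and 2991 of all genes, and DESeq2 called 2 of the genes higher and 2 lower among 1334 higher and 453 lower in all. Of the 32, 10 estimates were above 0 and 22 below, with a median of −0.41 for these genes and −0.02 for all genes on the log2 scale. Tpi1, the triose phosphate isomerase, had 409, 232 and 190 CPM on days 0, 1 and 3 in OvSvK cells, against 1218, 473 and 380 CPM in OSK cells (log2 difference −1.18 ± 0.28 SE; edgeR, Benjamini-Hochberg adjusted p = 0.0743). Gpi1 had 656, 606 and 458 CPM in OvSvK cells, against 1732, 1170 and 943 CPM in OSK cells (−1.11 ± 0.27 SE; edgeR, Benjamini-Hochberg adjusted p = 0.0748). Slc2a3 and Vegfa had estimates above 0, of 1.23 ± 0.42 and 1.19 ± 0.40 (SE). These arms lie in different sets of libraries on days 1 and 3, and the part of that difference cannot be told apart from the factors. OSK day 0 also stood apart by base composition, with an enzyme sum of 20801 TPM, against 12387 TPM on OvSvK day 0. With the GC trend removed, the median was −0.31 for these genes and −0.06 for all genes.

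On single days OvSvK and GFP libraries could be set side by side with no test. On day 1, 2 of 31 genes with at least 5 CPM in 1 of both libraries were over 2-fold higher in OvSvK (25.6% of all genes were) and 7 were over 2-fold lower (16.9% of all). The higher genes were Slc2a3 (88.3 CPM in OvSvK, against 13.0 CPM in GFP) and Hk2 (204 CPM, against 69.2 CPM). The lowest ratios were those of Tpi1 (232 CPM in OvSvK, against 929 CPM in GFP), Aldoc (1.77 and 7.01 CPM), Slc16a3 (4.52 and 16.9 CPM), Aldoa (509 and 1399 CPM) and Ldha (612 and 1585 CPM). GFP day 1 stood apart by base composition and had the highest enzyme sum of its arm (17252 TPM). Of the 7 genes, Tpi1 and Eno2 stayed past 2-fold lower on day 3 (ratios 0.414 and 0.328). Aldoa, Ldha, Pgam1 and Aldoc did not (0.557, 0.637, 0.675 and 1.16), and Slc16a3 was below 5 CPM in both libraries.

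On day 3, 6 of 30 genes were over 2-fold higher (22.4% of all) and 6 lower (17.6% of all). Slc2a3 had 155 CPM in OvSvK, against 9.01 CPM in GFP, a ratio of 16.9 with a prior count of 2. Hk2, Mxi1, Slc2a1 and Pfkp followed with ratios of 3.33, 2.97, 2.62 and 2.48. The lowest were Adm (1.88 CPM in OvSvK, against 17.2 CPM in GFP), Bnip3 (8.69 and 37.7 CPM), Ndrg1 (15.6 and 66.2 CPM), Eno2 (21.2 and 65.0 CPM) and Tpi1 (190 and 459 CPM). OvSvK and GFP libraries also lie in different sets.

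Removal of single components from OSK cultures was compared with complete OSK cultures on days 3 and 7, in 1 model of 8 libraries with 32 of the genes among 14191 tested. The 3 comparisons share the OSK libraries, and these lie in another set than the omissions. Without GSK3 inhibitors, Slc2a3, Pfkp, Pgk1, Eno1, Ldha and Pdk1 were lower and Ldhb was higher. Without bFGF, Eno2 and Ldhb were higher. Without vitamin C no gene passed.

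Without GSK3 inhibitors 6 of 32 genes were lower (18.8%, against 13.3% of all genes) and 1 higher (3.12%, against 9.97%), by edgeR's quasi-likelihood test with Benjamini-Hochberg adjustment. Slc2a3 had 18.7 and 63.8 CPM on days 3 and 7 without the inhibitors, against 32.8 and 285 CPM in complete OSK (log2 difference −1.55 ± 0.37 SE; edgeR, Benjamini-Hochberg adjusted p = 0.0186). Eno1 had 572 and 575 CPM, against 950 and 1552 CPM (−1.07 ± 0.24 SE; edgeR, Benjamini-Hochberg adjusted p = 0.0126). Pdk1 had 18.5 and 15.8 CPM, against 26.4 and 42.1 CPM (−0.97 ± 0.27 SE; edgeR, Benjamini-Hochberg adjusted p = 0.0268). For these 3 genes the gap was wider on day 7 than on day 3. Pfkp had 101 and 83.8 CPM without the inhibitors, against 186 and 157 CPM in complete OSK (−0.88 ± 0.20 SE; edgeR, Benjamini-Hochberg adjusted p = 0.0131). Ldha had 300 and 306 CPM, against 435 and 646 CPM (−0.81 ± 0.24 SE; edgeR, Benjamini-Hochberg adjusted p = 0.0335), and Pgk1 had 470 and 447 CPM, against 727 and 828 CPM (−0.75 ± 0.22 SE; edgeR, Benjamini-Hochberg adjusted p = 0.034). Both lay below complete OSK on each day. Ldhb, whose subunit favours the reaction from lactate to pyruvate, had 89.2 and 90.5 CPM without the inhibitors, against 52.3 and 63.6 CPM in complete OSK (0.64 ± 0.20 SE; edgeR, Benjamini-Hochberg adjusted p = 0.045). Of 7 pluripotent markers 5 were lower, summing to 31.3 and 96.9 CPM without the inhibitors on days 3 and 7, against 87.1 and 862 CPM in complete OSK, and of 7 fibroblast markers 3 were higher. Nanog had 0.369 and 17.8 CPM without the inhibitors, against 0.42 and 98.1 CPM in complete OSK, and their part in these differences was not tested. With the trend on GC content removed, 4 of the genes remained lower (Slc2a3, Pfkp, Eno1 and Ldha) and none higher, and Pdk1 did not pass on the log2(TPM + 1) scale either. Without OSK day 7 or the day 7 library without the inhibitors, the calls for Slc2a3 and Pdk1 were lost, without either library lacking the inhibitors that for Pfkp, and without the day 7 one that for Eno1. Those for Pgk1 and Ldha were lost without OSK day 7 or any omission library, and that for Ldhb without OSK day 3 or any omission library.

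Without bFGF 2 of 32 genes were higher (6.25%, against 4.71% of all genes) and none lower (against 7.77%), with 11 at an unadjusted p below 0.05 in either direction and 2 called lower by DESeq2. Eno2 had 70.0 and 80.1 CPM on days 3 and 7 without bFGF, against 43.6 and 45.9 CPM in complete OSK (log2 difference 0.75 ± 0.19 SE; edgeR, Benjamini-Hochberg adjusted p = 0.0298). Ldhb had 104 and 91.4 CPM without bFGF, against 52.3 and 63.6 CPM in complete OSK (0.76 ± 0.20 SE; edgeR, Benjamini-Hochberg adjusted p = 0.0362). Of 7 fibroblast markers 5 were higher without bFGF, summing to 10987 and 5054 CPM on days 3 and 7, against 6059 and 1705 CPM in complete OSK. Of 7 pluripotent markers 5 were lower, summing to 36.6 and 183 CPM without bFGF, against 87.1 and 862 CPM in complete OSK. The part of these markers in the results for Eno2 and Ldhb was not tested. Neither gene passed with the GC trend removed. With 1 of 8 libraries left out, Eno2 held in 3 refits and Ldhb in 1, and both were lost without either library lacking bFGF or vitamin C. Eno2 was also lost without day 7 lacking GSK3 inhibitors, and Ldhb without either library lacking them or OSK day 3. Ldhb was also above complete OSK without vitamin C (83.1 and 77.4 CPM) and without GSK3 inhibitors, so that each omission library exceeded both OSK libraries.

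Without vitamin C no gene was higher or lower by edgeR (0 of 32, against 0.0423% and 0.254% of all genes), 4 had an unadjusted p below 0.05, and DESeq2 called none. The hydroxylase gene Egln3 had 10.2 and 11.9 CPM without vitamin C, against 11.6 and 22.6 CPM in complete OSK, and Egln1 had 43.9 and 35.0 CPM, against 48.2 and 59.1 CPM. Slc2a3 had 198 CPM on day 7 without vitamin C, 85.5 CPM without bFGF and 63.8 CPM without GSK3 inhibitors, against 285 CPM in complete OSK.

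Omissions set against each other stay within 1 set of libraries. Without vitamin C against without bFGF, none of 32 genes was higher (against 5.01% of all genes) and 2 were lower (6.25%, against 2.02%), with 3 at an unadjusted p below 0.05. DESeq2 called none higher and 2 lower. Hk2 had 95.6 and 100 CPM without vitamin C, against 179 and 156 CPM without bFGF (log2 difference −0.79 ± 0.21 SE; edgeR, Benjamini-Hochberg adjusted p = 0.0488). Egln3 had 10.2 and 11.9 CPM without vitamin C, against 25.3 and 21.9 CPM without bFGF (−1.14 ± 0.29 SE; edgeR, Benjamini-Hochberg adjusted p = 0.0433). Both groups lay apart on both days, yet both calls were lost without any 1 omission library and with the GC trend removed. Without vitamin C against without GSK3 inhibitors, 1 gene was higher (3.12%, against 9.29% of all genes) and none lower (against 4.66%), with 8 at an unadjusted p below 0.05 in either direction. DESeq2 called 2 higher and 1 lower. Eno1 had 896 and 1249 CPM without vitamin C, against 572 and 575 CPM without GSK3 inhibitors (0.86 ± 0.24 SE; edgeR, Benjamini-Hochberg adjusted p = 0.0392), and was lost without any 1 omission library. Slc2a3 had 33.6 and 198 CPM without vitamin C, against 18.7 and 63.8 CPM without GSK3 inhibitors, and missed the threshold (1.24 ± 0.37 SE; edgeR, Benjamini-Hochberg adjusted p = 0.0545).

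**Figure D5:**
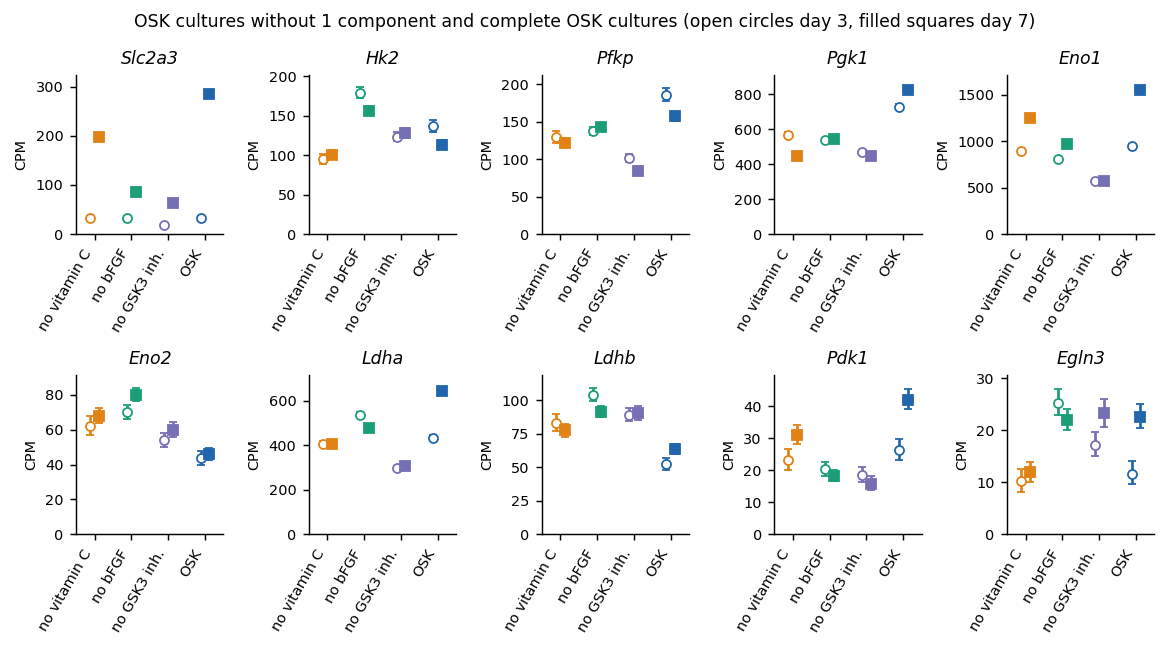
CPM on day 3 (open circles) and day 7 (filled squares) of the 10 genes called in any comparison of omissions, from cultures without vitamin C, bFGF or GSK3 inhibitors and from complete OSK, with 95% Poisson intervals. Slc2a3, Pfkp, Pgk1, Eno1, Ldha and Pdk1 are lowest on day 7 in the culture without GSK3 inhibitors, except that Pgk1 had 445 CPM without vitamin C and 447 CPM without GSK3 inhibitors.

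Other genes of these pathways were read from 5 further lists. Between OSK and GFP cells, where 16.8% of all genes were higher and 14% lower, 5 of 25 other glycolysis and pyruvate genes were higher and 3 lower, with Pdk4, a kinase of the same family as Pdk1, lower by −3.39 ± 0.45 and the fructose 2,6-bisphosphatase gene Tigar higher by 1.30 ± 0.25 (log2, SE; edgeR, Benjamini-Hochberg adjusted p = 0.00571 and 0.0158). Of 12 genes of the HIF machinery, Arnt2 (1.09 ± 0.19) and P4htm (3.07 ± 0.59) were higher and Cited2 (−1.29 ± 0.23), which competes with HIF for a coactivator, was lower. Of 37 other HIF targets 10 were higher, among them Tmem45a (1.99 ± 0.19) and the demethylase gene Kdm3a (1.32 ± 0.16), and 7 were lower, among them the carbonic anhydrase gene Car12 (−3.82 ± 0.45). Of 9 genes of the pentose phosphate pathway, Rpia was higher and H6pd and Tkt lower. Of 20 genes of the ER stress and amino acid response, 1 was higher and 4 lower (Cebpb, Phgdh, Dnajb9 and Xbp1). Median log2 differences of the 5 lists, in this order, were 0.09, 0.12, −0.08, −0.06 and −0.34, against 0.05 for all genes.

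Over days in OSK cells, where 21.5% of all genes rose and 24.0% fell, 3 of 27 other glycolysis and pyruvate genes rose and 5 fell, 1 of 12 genes of the HIF machinery rose and 3 fell, and 7 of 37 other HIF targets rose and 15 fell. The iron uptake gene Tfrc rose by 0.52 ± 0.06 and Ak4, an adenylate kinase, by 0.58 ± 0.07 per day, and the collagen cross-linking gene Lox fell by 0.58 on the log2 scale per day (edgeR, Benjamini-Hochberg adjusted p = 0.00033, 0.000362 and 0.000661). In the pentose phosphate pathway 1 of 10 rose and 4 fell, and in the ER stress and amino acid response 2 of 20 rose and 7 fell. In OvSvK cells, where 4.49% of all genes rose and 5.81% fell, 2 of 37 other HIF targets rose and 8 fell, again with Ak4 rising by 0.74 ± 0.11 and Lox falling (slope −1.40 ± 0.13 per day), while 2 of 27 other glycolysis genes and 1 of 10 pentose phosphate genes fell. The slopes of Ak4, Tfrc and Ddit4 were higher in OSK than in GFP cells, by 0.77 ± 0.11, 0.58 ± 0.10 and 0.48 ± 0.10 per day, and those of Epas1, which encodes HIF-2α, and Lox were lower, by −0.63 ± 0.13 and −0.62 ± 0.12 (log2, SE; edgeR, Benjamini-Hochberg adjusted p from 0.00374 to 0.0195). Without OSK day 0 and GFP day 1, the slopes called over all genes fell from 394 higher and 468 lower to 8 and 10. Whether these genes were among them was not read. Without GSK3 inhibitors, Tfrc was lower than in complete OSK by −3.98 ± 0.37 and Slc16a1, a lactate and pyruvate transporter, by −1.30 ± 0.25, and Pdk2 was higher by 1.34 ± 0.27 (edgeR, Benjamini-Hochberg adjusted p = 0.00101, 0.00628 and 0.00837). In that comparison, with 9.97% of all genes higher and 13.3% lower, 2 of 27 other glycolysis genes were higher and 3 lower, and 6 of 37 other HIF targets higher and 4 lower. Without vitamin C, no member of the 5 lists passed against complete OSK (edgeR).

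In the series table each column of scores has the median 374 and the maximum 58542. mESC and MEF have 1 column each there, so the following are values without a test. Both are labelled as re-analysis and were processed with RSEM 1.1.21 and mm9, unlike the other columns. The part of this difference in scores set beside those of the arms was not tested. Of the 31 genes listed there, 9 were at least 2-fold higher in mESC than in MEF on the scale of score + 1 (29%, against 26.1% of the 12897 genes) and 3 at least 2-fold lower (9.68%, against 27.1%). Slc2a3 had a score of 18680 in mESC, against 101 in MEF, with 8390 on OvSvK day 4, 3855 on OSK day 7 and 284 on GFP day 7. The other genes higher in mESC were Ldhb (3352, against 328 in MEF), Aldoc (346, against 34), Pfkp (4791, against 864), Hk2 (4242, against 1507), Gpi1 (9706, against 3944), Gapdh (26708, against 11500), Mxi1 (574, against 248) and Eno1 (18768, against 8420). Those lower were Adm (5 in mESC, against 384 in MEF), Egln1 (546, against 1120) and Eno2 (116, against 250). Slc2a3, Hk2, Pfkp and Mxi1 were thus higher both in mESC than in MEF and in OSK than in GFP cells, whereas Pdk1, higher in OSK cells, had 198 in mESC, against 374 in MEF, and Vegfa, lower in OSK cells, had 1553, against 1488.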

How the data were processed

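RNA sequencing of 20 libraries was deposited as 1 table each of RSEM expected counts and TPM over 24130 genes. Per the submitters' processing notes RSEM 1.2.4 with mm10 was used, and RSEM 1.1.21 with mm9 for mESC and MEF, which were read only from the series table. The authors' series table holds whole numbers, read here as a score because all 22 columns share their median and maximum; how they were made is not given in the sources used here. Expected counts, as deposited by the authors, were rounded to whole numbers. Symbols came from the series table for 12897 gene IDs and from GENCODE M21 (GRCm38) for 10788, and 445 IDs had none. The TPM values stand beside the counts in the authors' tables and were used for levels between genes and as log2(TPM + 1).

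The 33 genes and the further lists were chosen with earlier results of these data known. Counts were fitted with edgeR 4.0.16 in R 4.3.3 (TMM scaling, filterByExpr by arm, robust quasi-likelihood test, Benjamini-Hochberg adjustment over all genes tested, threshold 0.05), with day as a block, or with an intercept and a line over days per arm. The fits held 12680, 12910, 13848 and 14191 genes and had 3, 2, 8 and 3 residual degrees of freedom. The standard error is the log2 difference divided by the square root of the F statistic. Genes past the threshold were named, with the value in each library for up to 12, and of each further list up to 4 with the smallest p. One such gene is not reported here. On single days up to 5 per direction were named, past 2-fold with at least 5 CPM in 1 of both libraries and a prior count of 2. CPM are counts per TMM-scaled total. Poisson intervals (95%) cover counting error only. Nothing in the labels says that samples came from separate animals, and 1 library per arm and day leaves no replicate.

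Alternatives were DESeq2 1.42.0 size factors, its own test, no filter, limma 3.58.1 on log2(TPM + 1), a trend on GC content removed (spline with 5 degrees of freedom), the series table, other priors, and each library left out. Tables were made in Python 3.11.15 (pandas 2.3.3, scipy 1.17.1, numpy 2.4.6) and figures in matplotlib 3.10.9. Promoters are RefSeq's on GRCm38.p6.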

Additional observations from a re-analysis of the deposited data

How the results depend on the processing

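No called gene changed sign under any setting or library left out that was tried. Of 36 calls in 11 comparisons, 19 were kept under every setting and 5 with every library left out. The counts of the 33 genes called moved as follows, and the cause was not tested. With DESeq2's test 5 were lower in OSK than in GFP (main value 2), 2 higher and 2 lower in OvSvK than in OSK (main 0 and 0), and 5 fell in OvSvK (main 1). DESeq2 also gave 1 rising and 3 falling in GFP (main 0 and 1), 1 steeper and 3 less steep in OSK than in GFP (main 0 and 0), 2 lower without bFGF (main 0), 3 higher without GSK3 inhibitors (main 1), and 2 higher and 1 lower without vitamin C than without GSK3 inhibitors (main 1 and 0). By the series table, 1 was lower in OSK than in GFP. With no filter 2 were lower in OvSvK than in OSK, 0 fell in GFP, 2 were higher without GSK3 inhibitors, and 1 was lower without vitamin C than without GSK3 inhibitors. On log2(TPM + 1) 1 was higher without bFGF (main 2), 0 lower without vitamin C than without bFGF (main 2) and 2 higher without vitamin C than without GSK3 inhibitors. With the GC trend removed 1 was higher in OvSvK than in OSK, 5 fell in OvSvK, 0 fell in GFP, 2 slopes were lower in OSK than in GFP, 0 were higher without bFGF, 0 higher without GSK3 inhibitors and 0 lower without vitamin C than without bFGF. DESeq2 size factors gave 1 lower without vitamin C than without bFGF. Without OSK day 0 and GFP day 1, 6 fell in OSK (main 10), 9 in OvSvK (main 1) and 0 in GFP (main 1). With the 3 omissions only, 1 was higher without vitamin C than without bFGF, and 3 were higher and 4 lower without vitamin C than without GSK3 inhibitors. With each library left out in turn, the counts ranged from 2 to 8 higher and 0 to 4 lower in OSK against GFP, 0 to 1 and 0 to 3 in OvSvK against OSK, 1 to 5 rising and 5 to 13 falling in OSK, 0 to 2 and 0 to 5 in OvSvK, 0 to 1 and 0 to 6 in GFP, and 0 to 1 and 0 to 2 for the difference of slopes. They ranged from 0 to 2 higher and 0 to 7 lower without bFGF, 0 and 0 to 3 without vitamin C, 0 to 2 and 0 to 10 without GSK3 inhibitors, 0 to 1 and 0 to 2 without vitamin C against without bFGF, and 0 to 3 and 0 to 4 without vitamin C against without GSK3 inhibitors. A comparison of 2 days left with 1 library in a medium assumes that it varies like the others.

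Over all genes, OvSvK against OSK had 0 calls, but 1334 higher and 453 lower by DESeq2, 825 and 186 with no filter, and 192 and 97 with the GC trend removed. Slopes in OSK were called for 2977 rising and 3321 falling genes, against 1361 falling on log2(TPM + 1), and 1675 and 1823 without OSK day 0 and GFP day 1. In OvSvK 622 rose and 804 fell, against 1100 and 1283 by DESeq2, 1303 and 407 on log2(TPM + 1), 1763 falling with the GC trend removed, and 1352 and 1811 without those libraries. In GFP 287 rose and 378 fell, against 1128 and 1096 by DESeq2, 248 falling on log2(TPM + 1), 777 falling with the GC trend removed, and 1 and 1 without those libraries. The difference of slopes had 394 higher and 468 lower, against 833 and 963 by DESeq2, 298 lower on log2(TPM + 1), 805 lower with the GC trend removed, and 8 and 10 without those libraries. Without bFGF 668 were higher and 1103 lower, against 402 and 639 on log2(TPM + 1) and 303 and 337 with the GC trend removed. Without vitamin C 6 were higher and 36 lower, against 145 and 171 by DESeq2, 47 and 92 with no filter, 2 and 6 on log2(TPM + 1), and 0 and 12 with the GC trend removed. Without GSK3 inhibitors 1415 were higher and 1894 lower, against 553 and 814 with the GC trend removed and 1243 lower on log2(TPM + 1). Without vitamin C against without bFGF 711 were higher and 286 lower, against 451 and 132 on log2(TPM + 1), 71 and 123 with the GC trend removed and, with the 3 omissions only, 1542 and 748. Without vitamin C against without GSK3 inhibitors 1319 were higher and 661 lower, against 409 higher with the GC trend removed and 2110 and 1427 with the 3 omissions only. On log2(TPM + 1) the median of all genes moved to 0.20 in OSK against GFP (main 0.05), 0.18 in OvSvK against OSK (main −0.02), 0.11 for slopes in OvSvK (main 0.00), and 0.11 without vitamin C against OSK (main 0.01) and also against cultures without bFGF (main −0.02). The higher share of all calls was 54.6% in OSK against GFP, 67.9% on log2(TPM + 1) and 42.5% with the GC trend removed. For slopes it was 47.3% in OSK, 43.6% in OvSvK, 43.2% in GFP and 45.7% for the difference, against 74.8%, 76.2%, 61.6% and 65.5% on log2(TPM + 1), and 31.2% in OvSvK with the GC trend removed. Without vitamin C it was 14.3% against OSK (25% and 0% under those settings), 71.3% against without bFGF and 66.6% against without GSK3 inhibitors (36.6% and 47.7% with the GC trend removed). No paired analysis was possible because the labels give no replicate numbers, beyond the pairing of arms by day that the fits on matched days hold as a block.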

Other observations

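Slc2a3 lies on the minus strand at chr6:122727809-122801640 (GRCm38), and Nanog lies at chr6:122707489-122714633. Between them are 13175 bases, counted from the lower coordinate of Slc2a3, where that gene ends and not where it starts. On OvSvK days 0 to 4 Slc2a3 had 54.7, 88.3, 105, 155 and 545 CPM, while Nanog had 0.665, 2.00, 9.52, 55.6 and 139 CPM. In OSK cells without vitamin C, Slc2a3 had 33.6 CPM on day 3 and 198 CPM on day 7, while Nanog had 0 counts on day 3, which allows up to 0.354 CPM, and 36.4 CPM on day 7. The 7 pluripotent markers together had 54.8 CPM on day 3 and 577 CPM on day 7 in these libraries. The day 3 value of Slc2a3 lay above its highest GFP value, 24.3 CPM, as did that without bFGF (32 CPM, with Nanog at 0.179 CPM). Without GSK3 inhibitors it lay below, with 18.7 CPM on day 3 and Nanog at 0.369 CPM. The omission and GFP libraries lie in different sets.

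Chromosome 6 carried 6 of the 33 genes and chromosome 7 carried 5. The share of all genes on these chromosomes was not read, so the counts are no sign of clustering. On chromosome 6, Eno2, Tpi1 and Gapdh lie close together, starting at 124760053, 124810586 and 125161715.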
